A study of Homo sapiens with 32 samples.

Results

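MDA-MB-231 is an established human breast cancer line of mesenchymal type, and OTS964 is a small-molecule inhibitor of the kinase CDK11. The comparison described here is that of 2 RNA-seq libraries from wild-type MDA-MB-231 cells given OTS964 at 100 nM against 2 libraries from wild-type MDA-MB-231 cells given the solvent DMSO, both for 6 h. These 4 libraries were chosen by their titles, out of 32 in the series. The whole series holds 16 groups of 2 libraries from 4 lines (A375, Cal51, DLD1 and MDA-MB-231), each labelled wild-type or G579S and given DMSO or OTS964. The design text calls wild-type cells sensitive and G579S cells resistant to inhibition of CDK11. Each condition is 1 line at 1 dose and 1 time. Nothing in the labels tells whether replicate libraries were grown as separate cultures. The p-values here reflect the spread between the samples alone, which may be technical and was pooled over the 16 groups. The OTS964 pair described here lay further apart than its DMSO pair, as given below. The pooled spread may thus understate that of the OTS964 pair.

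CDK11A and CDK11B encode near-identical kinases that bind L-type cyclins (CCNL1, CCNL2) and the adaptor SAP30BP. The complex phosphorylates the splicing factor SF3B1, a step needed for activation of the spliceosome, and CDK11 has also been linked to transcription by RNA polymerase II and to histone genes. MDA-MB-231 carries activating mutations of the RAS-RAF pathway and a mutant p53, and is known for high basal activity of ERK and NF-kB signalling.

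The 4 libraries carried the markers of their label. VIM, the mesenchymal filament protein, stood at 3670 and 3642 CPM in the DMSO libraries and 7651 and 6185 CPM in the OTS964 libraries. CD44 lay between 1023 and 1605 CPM, and the hormone receptor genes ESR1 and PGR and the intestinal genes CDX2 and VIL1 were at 0 in all 4. CDH1, the epithelial adhesion gene, was at 3.69 and 3.74 CPM with DMSO. The melanocyte markers summed to between 16.8 and 25.8 CPM over 14 genes in these libraries, against 877 to 1243 CPM in the DMSO libraries labelled A375 and DLD1 wild-type, with SOX10 at or near 0. The libraries labelled DLD1 wild-type carried melanocyte markers at the level of A375, against their label. Their values are compared only where MDA-MB-231 is set against other lines. They are also part of the fit over all libraries, which gives the filter and the spread for every test.

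Depth was not the same in all 4 libraries. The DMSO libraries held 20173709 and 21023196 estimated reads and the OTS964 libraries 28789944 and 21764801. OTS964 library 1 was thus the deepest, yet it had the fewest genes above 0, 12317 against 13070 in OTS964 library 2 and 13430 and 13514 in the DMSO libraries. It also had the fewest transcripts above 0, 28906 against 34295 in library 2 and 37303 and 37946 with DMSO.

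The treated libraries differed from each other by more than most replicate pairs in the series. For genes at a mean of 10 CPM or more (reads scaled to a common total with TMM factors), the median absolute log2 difference between the 2 OTS964 libraries was 0.391, against 0.074 between the 2 DMSO libraries and at most 0.325 in the other 14 groups. Of these genes 6.85% were at least 2-fold apart, a share that was higher only in the pairs labelled DLD1 wild-type OTS964 (8.71%) and Cal51 G579S DMSO (6.98%). Of 8580 genes with a DMSO mean of at least 10 CPM, 113 were at 0 in OTS964 library 1, 35 in library 2 and 15 in both. Relative to the DMSO mean, 2199 of the genes were at least 2-fold lower in library 1 and 1733 in library 2, with 1474 in both, which is 67.0% of the first list and 85.1% of the second. At least 2-fold higher were 1444 in library 1 and 564 in library 2, with 441 in both (30.5% and 78.2%). Only 4 genes were 2-fold lower in one library and 2-fold higher in the other. At the 2-fold threshold the treated libraries were thus seldom opposed in direction, and library 1 held more changes of this size both up and down. Both libraries were set against the same DMSO mean, so their directions are not independent. Smaller changes of opposite sign were not counted.

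**Figure D1:**
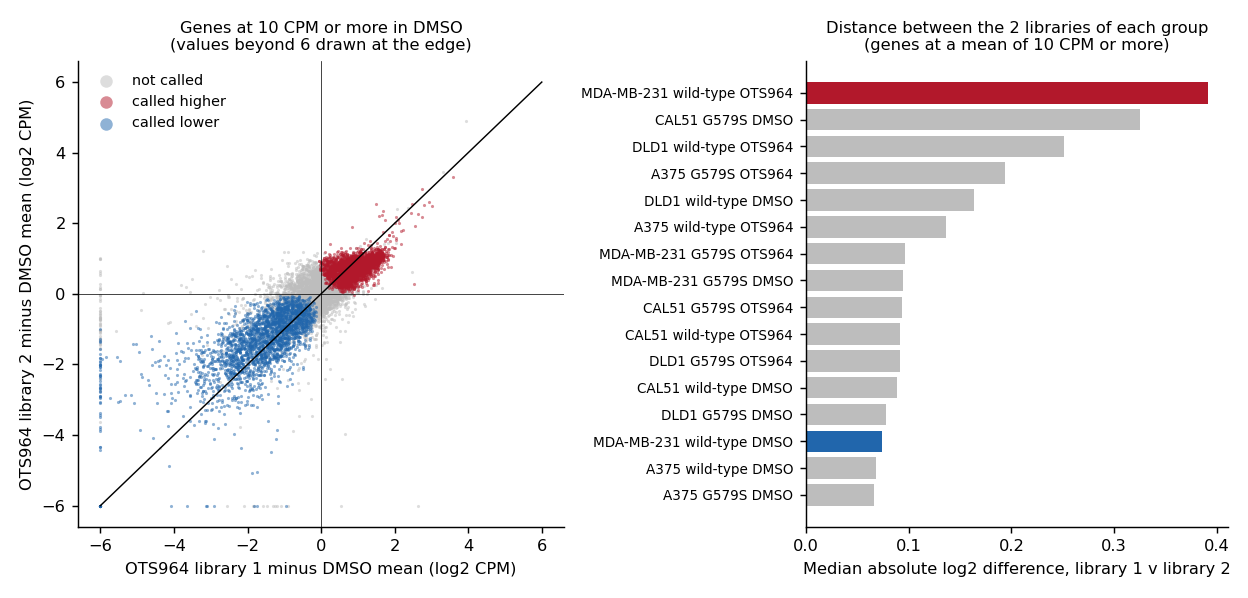
Left, each point is a gene at a DMSO mean of 10 CPM or more, with its log2 difference from the DMSO mean in OTS964 library 1 (x axis) and library 2 (y axis), coloured by its call in the test over all genes; the line marks equal change. Right, bars give the median absolute log2 difference between the 2 libraries of each of 16 groups; the MDA-MB-231 wild-type OTS964 pair has the longest bar, 0.391, and the MDA-MB-231 wild-type DMSO pair stands at 0.074.

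OTS964 changed a large share of the genes tested in wild-type MDA-MB-231, in both directions. Of 14318 genes tested, 6655 (46.5%) passed an adjusted p of 0.05 in edgeR's quasi-likelihood test with Benjamini-Hochberg adjustment, 3448 of them (24.1%) higher and 3207 (22.4%) lower. At least 2-fold among the called genes, 1346 (9.4%) were higher and 2330 (16.3%) lower. For 6581 genes (46.0%) the call held and both OTS964 libraries lay on the same side of both DMSO libraries. Genes called lower had a median log2 change of -1.60 in library 1 and -1.36 in library 2, and genes called higher 1.00 and 0.80. Without OTS964 library 1 the count was 5842 and without library 2 it was 7072, of which 5235 and 5884 were also called, in the same direction, with both. With either OTS964 library alone against both DMSO libraries, 4786 genes passed in each fit, 4699 of them in the same direction and 87 in opposite ones.

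Directions are relative to the scaling. With library totals in place of TMM factors the median of all genes moved from 0.00 to -0.39, and 25.5% of the called genes were higher (1660 higher and 4861 lower) in place of 51.8%. In bulk RNA, fewer cells of a kind and less RNA per cell cannot be told apart, and a change in total RNA per cell was not measured.

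In the CDK11 complex, the reads of the adaptor and 1 of the cyclins fell. SAP30BP was at 71.1 and 69.0 CPM with DMSO and 33.8 and 34.6 CPM with OTS964, and fell by 1.03 on the log2 scale (SE 0.10; edgeR adjusted p = 1.5e-07). CCNL2 was at 18.2 and 20.4 CPM with DMSO and 10.6 and 7.22 CPM with OTS964, a fall of 1.11 (SE 0.27; edgeR adjusted p = 0.0018), which did not pass (log2 change -0.36; adjusted p = 0.33) when counts were rebuilt from TPM scaled by gene length. For both genes the OTS964 values lay below both DMSO values. CCNL2 also changed in the share of its reads on each transcript (edgeR's test for differential usage, adjusted p = 0.003). The transcript NM_001039577.3, of 1207 bases, held 0 with DMSO and 31.9% and 39.1% with OTS964, beside NM_030937.4, of 3115 bases. CPM are not corrected for transcript length, and the part of this shift in the fall of CCNL2 was not tested.

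The kinases themselves and the other cyclin did not pass the test. CDK11A stood at 32.3 and 33.8 CPM with DMSO and 29.8 and 25.3 CPM with OTS964 (log2 change -0.26; edgeR adjusted p = 0.17), and its change was -0.77 and passed (adjusted p = 0.00032) with library totals. CDK11B stood at 61.9 and 56.4 CPM and 60.05 and 71.3 CPM (log2 change 0.15; edgeR adjusted p = 0.48), a change of opposite sign, -0.35, with library totals. The kinases share most of their sequence, so that reads split between them are uncertain. Their sum, with TMM factors, was 94.2 and 90.2 CPM with DMSO and 89.9 and 96.6 CPM with OTS964, with overlap. CCNL1 was at 7.37 and 10.7 CPM with DMSO and 12.7 and 8.80 CPM with OTS964, and these ranges overlapped. Its log2 change was 0.25 here (edgeR adjusted p = 0.62), -0.26 with library totals and -0.04 without OTS964 library 1, beside a mean change of 3.14 in the other lines labelled wild-type.

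**Figure D2:**
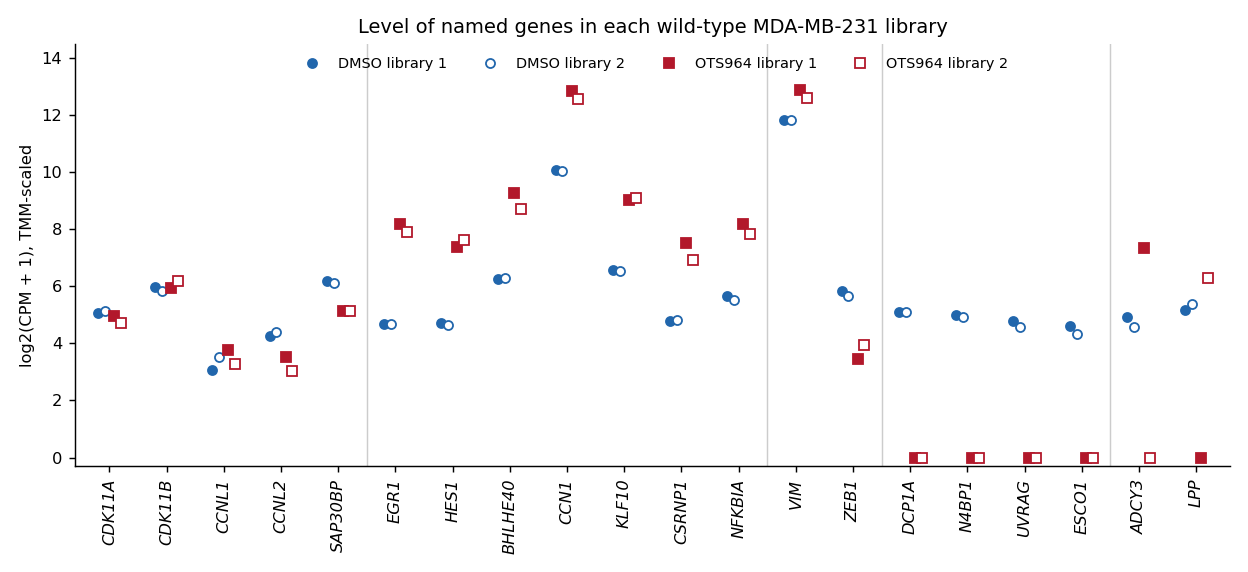
Each symbol is 1 wild-type MDA-MB-231 library, with its level as log2(CPM + 1) on the y axis and genes on the x axis, from left to right the CDK11 complex, genes with large increases, a mesenchymal filament gene and a repressor of epithelial genes, genes at 0 in both OTS964 libraries, and genes at 0 in only 1 of them. DMSO libraries are circles and OTS964 libraries squares; EGR1 to NFKBIA show squares above circles, and ADCY3 and LPP show the 2 squares far apart.

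The genes with the largest increases included transcription factors of the early response to growth and stress signals. EGR1, a zinc finger factor that growth signals induce within minutes, stood at 24.4 and 24.5 CPM with DMSO and 292 and 242 CPM with OTS964 (log2 change 3.45, SE 0.72; edgeR adjusted p = 0.00053). HES1, a repressor induced by Notch signalling, stood at 25.3 and 24.3 CPM and 165 and 197 CPM (log2 change 2.87, SE 0.33; edgeR adjusted p = 9.2e-07). BHLHE40, a repressor of the circadian and hypoxia responses, stood at 74.7 and 77.2 CPM and 614 and 423 CPM (log2 change 2.77, SE 0.16; edgeR adjusted p = 3.9e-10). By the rule that chose these genes, both OTS964 libraries lay above both DMSO libraries.

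CCN1, a secreted matrix protein, was the most abundant of the 12 genes with the largest increases, at 1076 and 1044 CPM with DMSO and 7432 and 6026 CPM with OTS964 (log2 change 2.67; edgeR adjusted p = 4.5e-09). KLF10, a factor induced by TGF-beta, stood at 94.5 and 92.3 CPM and 516 and 546 CPM, and CSRNP1, a nuclear protein of the immediate early class, at 26.6 and 27.2 CPM and 181 and 122 CPM. The cytokine gene LIF stood at 0 and 3.55 CPM with DMSO and 81.0 and 98.3 CPM with OTS964 (edgeR adjusted p = 0.0048). LIF was thus at 0 in 1 DMSO library and low in the other, and well above both in the OTS964 libraries.

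Of the other 5 of the 12, the zinc finger gene ZNF460 stood at 2.29 and 2.64 CPM and 17.0 and 14.3 CPM (edgeR adjusted p = 3.7e-05), and the remaining 4 each had a limit. TSSC4, an assembly factor of the U5 particle of the spliceosome, stood at 8.96 and 13.6 CPM and 85.7 and 67.4 CPM, and lost its call (adjusted p = 0.38) when only curated transcripts were counted. ARHGAP32, a GTPase-activating protein, stood at 0 and 1.73 CPM and 18.9 and 13.51 CPM, and did not pass without DMSO library 1 (adjusted p = 0.11). TBC1D16, a regulator of Rab GTPases, stood at 8.17 and 10.2 CPM and 55.02 and 64.3 CPM and lost its call without any 1 of the 4 libraries (adjusted p from 0.071 to 0.17). C10orf55 stood at 2.94 and 3.36 CPM and 106 and 61.4 CPM, but it overlaps PLAU, which was at 573 and 563 CPM and 810.3 and 677 CPM (edgeR adjusted p = 0.35). The sources used here do not give whether counting used strand, so reads of the 2 overlapping genes cannot be told apart.

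Promoters of 3 of the genes that rose in both libraries are printed to show what sequence stands before their start. They are the 250 bases before the start in RefSeq, build GRCh38.p14, 5′ to 3′ on the strand of the gene, with matches to the motifs searched in capitals. EGR1 lies at chr5:138465229-138465478 on the plus strand, HES1 at chr3:194135898-194136147 on the plus strand and NFKBIA, the inhibitor of NF-kB, at chr14:35404750-35404999 on the minus strand.
EGR1: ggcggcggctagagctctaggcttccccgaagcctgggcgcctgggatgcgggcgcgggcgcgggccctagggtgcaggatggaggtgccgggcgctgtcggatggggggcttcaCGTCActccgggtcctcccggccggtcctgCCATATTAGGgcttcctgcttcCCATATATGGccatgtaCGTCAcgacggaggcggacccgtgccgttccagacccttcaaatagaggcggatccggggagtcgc
HES1: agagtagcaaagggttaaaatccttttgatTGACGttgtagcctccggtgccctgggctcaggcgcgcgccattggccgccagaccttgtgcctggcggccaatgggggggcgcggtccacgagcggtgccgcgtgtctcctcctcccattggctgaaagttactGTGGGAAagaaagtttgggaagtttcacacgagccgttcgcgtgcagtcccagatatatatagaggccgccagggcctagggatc
NFKBIA: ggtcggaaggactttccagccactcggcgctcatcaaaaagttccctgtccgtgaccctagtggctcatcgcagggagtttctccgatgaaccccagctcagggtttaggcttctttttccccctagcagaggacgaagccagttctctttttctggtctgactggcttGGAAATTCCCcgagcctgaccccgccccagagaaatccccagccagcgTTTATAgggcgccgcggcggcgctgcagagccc

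The motifs searched on both strands were the CArG box and the NF-kB site, by their usual consensus, and the letters TGANTCA (AP-1), TGACG (the core bound by CREB and ATF factors), GTGGGAA (RBPJ, the factor of Notch signalling) and TATAAA. No 2 of these matches overlapped in the promoters printed. The EGR1 promoter held 2 CArG boxes, which bind serum response factor, and 2 TGACG matches. The HES1 promoter held 1 GTGGGAA and 1 TGACG match, and the NFKBIA promoter 1 NF-kB site and 1 TATAAA match. Over 27305 promoters of the same length, 1 for each gene, 1.14% held a CArG box, 9.57% an NF-kB site, 6.6% TGANTCA, 21.7% TGACG, 5.46% GTGGGAA and 11.1% TATAAA. A match is a description of letters and not a measured site.

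Of the 35 immediate early genes tested, 17 rose and 6 fell, with a median log2 change of 0.96 against 0.00 over all genes. Beside this and the list counts that follow for genes that rose or fell stand the shares over all genes tested, 24.1% higher and 22.4% lower. The share called in either direction rose with the DMSO level, from 30.7% of genes at 1 to 10 CPM to 58.6% at 10 to 50, 69.3% at 50 to 200 and 78.8% above 200 CPM, so counts of members called are a description and are not read as particular to a list. MYC, the growth-promoting factor, stood at 115 and 110.1 CPM with DMSO and 526 and 397 CPM with OTS964 (log2 change 2.03; edgeR adjusted p = 6.1e-09). GADD45A, a stress sensor, stood at 86.7 and 92.3 CPM and 309.9 and 264 CPM. The medians were close in the treated libraries, at 0.89 in library 1 and 0.84 in library 2.

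The targets of YAP and SRF, which read out cell tension and growth, moved in both directions, with 13 of 28 higher and 8 lower and a median of 0.40. With library totals 8 rose and 10 fell, and the median was -0.10. CCN1 and GADD45A rose, as above. ANKRD1, a nuclear ankyrin repeat protein and a standard readout of YAP, fell from 468 and 439 CPM to 47.1 and 72.5 CPM (log2 change -2.92; edgeR adjusted p = 4.5e-09). AJUBA, a scaffold of cell junctions and Hippo signalling, fell from 355 and 345 CPM to 88.2 and 80.7 CPM. Members of this list thus moved in opposite directions in both treated libraries.

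Of 24 feedback genes of the ERK pathway 6 rose and 9 fell, with a median of -0.67; the share that rose was close to the 24.1% over all genes. DUSP6 and DUSP5, phosphatases that inactivate ERK, rose from 179.7 and 171 CPM to 759 and 699.9 CPM and from 82.6 and 86.8 CPM to 323 and 284 CPM (log2 changes 2.06 and 1.84). PHLDA1 rose from 640.0 and 645 CPM to 2315 and 2032 CPM. DUSP7, another phosphatase of ERK, fell from 82.6 and 81.1 CPM to 23.6 and 25.6 CPM (log2 change -1.73; edgeR adjusted p = 3.5e-09). The list median was -0.82 in library 1 and -0.38 in library 2.

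Among feedback genes and cytokines of NF-kB, 14 of 29 rose and 4 fell, with a median of 0.80. NFKBIA stood at 49.1 and 45.2 CPM with DMSO and 292 and 229 CPM with OTS964 (log2 change 2.46, SE 0.30; edgeR adjusted p = 1.5e-06). TNFAIP3, a deubiquitinase that dampens the pathway, stood at 29.1 and 29.4 CPM and 118 and 118 CPM, the adhesion receptor ICAM1 at 121 and 126 CPM and 343 and 253 CPM, and the mitochondrial superoxide dismutase SOD2 at 142 and 147 CPM and 331 and 277 CPM. In all 4 genes the treated libraries lay above the DMSO libraries. The number that rose was 9 with library totals.

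The 12 genes with the largest decreases had no count in either OTS964 library. They were at between 10.3 and 33.2 CPM in the DMSO libraries, and were at least 63.6-fold to 176-fold lower by a floor of 3 counts per library. DCP1A, a cofactor of the enzyme that removes the cap of mRNA for decay, went from 33.2 and 33.1 CPM to 0 in both (at least 176-fold lower; edgeR adjusted p = 3e-06). N4BP1, a ribonuclease that limits NF-kB signalling, went from 31.2 and 29.7 CPM to 0 (at least 162-fold lower), and UVRAG, a factor of autophagy, from 26.4 and 22.9 CPM to 0 (at least 131-fold lower).

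DHX35, an RNA helicase, went from 24.4 and 26.1 CPM to 0, at least 134-fold lower. ESCO1, which acetylates cohesin, went from 23.4 and 19.2 CPM to 0, at least 113-fold lower, and CNEP1R1, a regulator of the lipin phosphatase, from 13.3 and 10.7 CPM to 0, at least 63.6-fold lower. The others were PHF3 (at least 145-fold lower), PRR14L (118), ZSCAN29 (104), TRIM35 (86.6), RBM12B (67.2) and KIF21A (67.0). PHF3 and KIF21A did not pass without either OTS964 library (adjusted p from 0.082 to 0.13), and KIF21A also not without DMSO library 1 (adjusted p = 0.059). Of the 12 genes, 9 rested on a single matched transcript. Estimated counts of 0 can be failed estimates, and reads assigned to unmatched transcripts would leave these sums.

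Other genes were at 0 in only 1 of the treated libraries, and in the 3 named first the other treated library lay above both DMSO libraries. ADCY3, an adenylyl cyclase, stood at 29.5 and 22.6 CPM with DMSO, at 162 CPM in OTS964 library 1 and at 0 in library 2. PLXNB2, a semaphorin receptor, stood at 89.0 and 71.1 CPM with DMSO, 116 CPM in library 1 and 0 in library 2. LPP, a protein of focal adhesions, stood at 35.4 and 41.0 CPM with DMSO, at 0 in library 1 and at 76.6 CPM in library 2. None of these 3 passed the test with both libraries.

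The 10 genes with the largest gap between the OTS964 libraries also held MTR, CCDC88A, EPG5, LPGAT1, PDK1, TNRC18 and NHSL3, which were at 0 in library 1 and at between 27.1 and 76.6 CPM in library 2, LPP included. LPGAT1 and PDK1, for example, were at 32.0 and 32.0 CPM in library 2 against 16.3 and 16.2 CPM and 16.1 and 16.4 CPM with DMSO. EPG5 and NHSL3, at 38.3 and 27.1 CPM in library 2, were below both DMSO values there too. In the other direction, RBMS1, PPP1R10 and C1GALT1 were at 13.3, 10.4 and 9.86 CPM in library 1, below both DMSO values, and at 0 in library 2. These genes were chosen for this gap, which is a description. The gap was wider at low levels: the median absolute log2 difference between the OTS964 libraries was 0.637 for genes at 1 to 10 CPM in DMSO, 0.455 at 10 to 50, 0.383 at 50 to 200 and 0.332 above 200 CPM. In the DMSO pair it was 0.273, 0.108, 0.058 and 0.035 in the same classes.

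Genes of the cytosolic ribosome and of oxidative phosphorylation rose almost without exception relative to other genes. Of 77 ribosomal protein genes 76 rose and 0 fell, with a median of 1.12, and 71 rose with library totals. RPL3 rose from 871 and 847 CPM to 2355 and 1796 CPM, RPL4 from 1076 and 1030 CPM to 1754 and 1911 CPM and RPL15 from 1075 and 1077 CPM to 2198 and 2177 CPM. In oxidative phosphorylation 55 of 58 nuclear genes rose and 0 fell, with a median of 1.11, and 46 rose with library totals. ATP5F1B, the catalytic subunit of ATP synthase, rose from 709 and 682 CPM to 1570 and 1336 CPM, and SDHC, an anchor of succinate dehydrogenase, from 78.3 and 75.5 CPM to 156 and 158 CPM. Both lists were higher in library 1 (medians 1.25 and 1.22) than in library 2 (0.99 and 0.95).

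Core spliceosome genes and the SR proteins with their kinases gave different counts. Of 45 core genes 31 rose and 5 fell, with a median of 0.57, whereas with library totals 12 rose and 11 fell with a median of 0.06. U2AF2, which binds the polypyrimidine tract, rose from 309.5 and 295 CPM to 714 and 555 CPM, the Sm protein SNRPB from 400.0 and 400.5 CPM to 949.6 and 723 CPM and the GTPase EFTUD2 from 274 and 277 CPM to 510.0 and 437 CPM. SF3B2, a partner of SF3B1, stood at 440.5 and 432 CPM and 710.4 and 618 CPM (log2 change 0.61; edgeR adjusted p = 1.9e-07), and its call was lost with library totals (log2 change 0.10; adjusted p = 0.14).

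Of 29 SR proteins and splicing kinases tested 2 rose and 11 fell, with a median of -0.38, and 21 fell with library totals. The kinase SRPK2, which phosphorylates SR proteins, fell from 48.5 and 43.5 CPM to 13.51 and 14.6 CPM and CLK1, a kinase of the same substrates, from 13.4 and 13.3 CPM to 2.18 and 2.51 CPM. SCAF4 and SCAF11, proteins with SR-like domains that act at RNA polymerase II and in splicing, fell from 68.6 and 70.0 CPM to 9.30 and 15.6 CPM and from 96.5 and 98.2 CPM to 17.7 and 27.5 CPM. For these genes the DMSO values lay within a few CPM of each other and the OTS964 values well below.

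Among 20 other transcription kinases, cyclins and pausing factors 4 rose and 10 fell, with a median of -0.59. CCNT1, the cyclin of CDK9, fell from 51.7 and 50.1 CPM to 7.42 and 12.8 CPM (log2 change -2.34; edgeR adjusted p = 5.8e-08), and CDK13, a kinase of elongating polymerase, from 54.2 and 61.8 CPM to 19.1 and 15.1 CPM. HEXIM1, which holds CDK9 inactive, fell from 85.7 and 87.2 CPM to 53.8 and 37.3 CPM. NELFCD, a pausing factor, rose from 114 and 118 CPM to 283 and 225 CPM.

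Genes of cleavage and polyadenylation split into 8 higher and 9 lower of 20, with a median of -0.16. With library totals 1 rose and 12 fell. CPSF7 fell from 141 and 140.0 CPM to 42.1 and 36.8 CPM, CSTF3 from 59.1 and 52.7 CPM to 22.1 and 26.8 CPM, the poly(A) polymerase PAPOLG from 13.54 and 15.5 CPM to 2.13 and 1.63 CPM and RBBP6 from 85.5 and 89.5 CPM to 12.5 and 13.1 CPM. The list median was -0.54 in library 1 and 0.12 in library 2. Of 10 genes that process histone mRNA or drive histone transcription 2 rose and 5 fell. NPAT, the activator of histone genes, fell from 43.8 and 44.1 CPM to 8.53 and 9.17 CPM, and SLBP, the stem-loop binding protein, from 138 and 134 CPM to 61.7 and 73.8 CPM. Of 55 replication-dependent histone genes 32 were tested, of which 6 rose and 0 fell. H1-2 rose from 13.1 and 13.4 CPM to 24.4 and 30.0 CPM and H2BC12 from 32.4 and 36.0 CPM to 66.7 and 70.0 CPM. The number that rose was 3 without OTS964 library 1 and 2 with library totals, and histone genes share reads with close copies.

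Mitosis genes were lower in 26 of 46 cases and higher in 3, and the list had a median of -0.65, against 22.4% lower and 24.1% higher over all genes; the share called in either direction was within the shares given above for genes at 10 CPM or more. CDCA8, which anchors the Aurora B kinase at centromeres, fell from 175 and 169 CPM to 42.8 and 35.7 CPM, CENPA, the centromeric histone, from 33.4 and 31.0 CPM to 5.99 and 6.22 CPM, and the spindle motor KIF11 from 198 and 205 CPM to 49.0 and 76.9 CPM. KIF18A, another spindle motor, was at 59.0 and 55.6 CPM with DMSO, 4.98 CPM in OTS964 library 1 and 12.6 CPM in library 2. With library totals 39 fell and 0 rose.

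The list of homologous recombination and Fanconi genes counted 17 of 34 lower and 3 higher, with a median of -0.58, against 22.4% lower and 24.1% higher over all genes. Its share called in either direction was close to the 58.6% of all genes at 10 to 50 CPM. PALB2, the partner of BRCA2, was at 27.2 and 25.5 CPM with DMSO, 1.63 CPM in OTS964 library 1 and 4.59 CPM in library 2. XRCC2, a recombination factor, was at 33.8 and 36.2 CPM, then 3.71 and 8.61 CPM, and the helicase BRIP1 at 76.8 and 73.2 CPM, then 12.2 and 27.2 CPM. These 3 genes fell in both libraries and were lower in library 1 than in library 2.

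DNA replication genes and E2F targets were evenly split, with 21 of 52 higher, 20 lower and a median of 0.02. With library totals 8 rose and 27 fell. Those that rose included all 6 subunits of the MCM helicase, MCM2 to MCM7, which were named after their values were seen. MCM5 rose from 117 and 118 CPM to 318 and 193 CPM and MCM3 from 307 and 315 CPM to 640.3 and 496 CPM, whereas MCM4, MCM6 and MCM7 did not pass with library totals (adjusted p from 0.15 to 0.44). The 4 members with the smallest adjusted p fell. GMNN, the inhibitor of replication licensing, fell from 45.6 and 42.8 CPM to 6.15 and 8.92 CPM, and the origin recognition subunits ORC6 and ORC2 from 26.1 and 28.6 CPM to 4.01 and 8.04 CPM and from 26.2 and 22.0 CPM to 8.28 and 9.24 CPM. MCM10, a replication factor that is not one of these 6 subunits, fell from 72.8 and 78.0 CPM to 21.7 and 29.7 CPM. The medians of this list were -0.31 in library 1 and 0.14 in library 2, so its sign depended on the library.

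Targets of p53 had the lowest median of the lists, -1.14, with 4 of 25 higher and 11 lower. SESN2, a stress-induced regulator of mTOR, fell from 25.6 and 25.9 CPM to 5.99 and 6.16 CPM, the nuclease AEN from 59.3 and 56.5 CPM to 14.3 and 6.91 CPM and the bypass polymerase POLH from 54.7 and 52.3 CPM to 18.4 and 20.5 CPM. GADD45A rose, as given above. The p53 median was -1.18 in library 1 and -0.71 in library 2.

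In the list of apoptosis regulators 12 of 30 fell and 4 rose, against 22.4% and 24.1% of all genes tested. MCL1, a short-lived survival protein, fell from 354 and 359 CPM to 171 and 212 CPM (log2 change -0.90; edgeR adjusted p = 6.8e-08). BAK1, which permeabilises mitochondria, fell from 81.8 and 80.8 CPM to 25.5 and 23.2 CPM. BID, a messenger between death receptors and mitochondria, rose from 28.5 and 29.6 CPM to 86.0 and 55.6 CPM. The survival gene MCL1 and the death gene BAK1 thus fell together in both libraries, and BID, also a death gene, rose in both.

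Stress response lists moved in both directions. Among 30 ATF4 targets and genes of the unfolded protein response, 13 were called higher and 10 lower, and with library totals 5 rose and 12 fell. The chaperones CALR and PDIA4 rose from 987 and 972 CPM to 2364 and 1996 CPM and from 351 and 346 CPM to 758 and 713 CPM, while HERPUD1, a factor of protein degradation at the endoplasmic reticulum, fell from 30.2 and 27.8 CPM to 4.01 and 4.71 CPM. In the heat shock list 11 of 22 rose and 5 fell, against 4 and 8 with library totals. AHSA1, a cofactor of HSP90, rose from 142 and 139 CPM to 255 and 225 CPM and CACYBP from 106 and 114 CPM to 180.2 and 191 CPM. HSP90AB1 stood at 2967 and 2889 CPM and 5077 and 4856 CPM (edgeR adjusted p = 2.9e-06) and did not pass with library totals (adjusted p = 0.063). DNAJB4 fell from 16.6 and 18.3 CPM to 3.20 and 5.03 CPM.

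Of 28 interferon-stimulated genes tested 10 rose and 3 fell, against 24.1% and 22.4% of all genes. Their median was 0.50, and -0.01 with library totals. IFITM3, which blocks viral entry, rose from 132 and 138 CPM to 471 and 280.5 CPM and ISG15 from 63.0 and 61.2 CPM to 156 and 113 CPM, whereas the transcription factor IRF1 fell from 47.0 and 45.3 CPM to 12.8 and 12.5 CPM. Of 24 cholesterol synthesis genes 10 rose and 5 fell, with a median of 0.73, 0.94 in library 1 and 0.47 in library 2. SREBF2, the regulator of the pathway, rose from 101 and 107 CPM to 259 and 201 CPM, and the enzymes FDFT1 and FDPS from 40.8 and 40.6 CPM to 77.6 and 71.4 CPM and from 112 and 114 CPM to 273 and 199 CPM. For SREBF2 and both enzymes library 1 was the higher of the treated libraries.

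Among mesenchymal and invasion genes more rose than fell. Of 23 mesenchymal markers 14 rose and 1 fell (10 and 1 with library totals), and of 36 genes of invasion and matrix 17 rose and 2 fell (9 and 2 with library totals). MSN, which links membrane and actin, rose from 997 and 992 CPM to 1909 and 1736 CPM, the membrane protease MMP14 from 965 and 966 CPM to 1966 and 1534 CPM and the integrin ITGA3 from 1534 and 1535 CPM to 3738 and 2729 CPM. The 1 mesenchymal marker that fell was ZEB1, the repressor of epithelial genes, from 56.5 and 49.98 CPM to 9.91 and 14.3 CPM (log2 change -2.14; edgeR adjusted p = 0.00022); it was named after its values were seen. The mesenchymal markers summed to 11630 and 11710 CPM with DMSO and to between 20040 and 22910 CPM with OTS964.

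Markers of other cell types moved as follows, and their part in the results was not tested. Of 13 luminal breast markers 6 rose and 1 fell (3 and 1 with library totals). The 1 that fell was the transcription factor XBP1, from 65.9 and 68.2 CPM to 26.0 and 27.0 CPM. The luminal sum went from 2035 to 2043 CPM with DMSO to 3488 to 4821 CPM with OTS964. Most of this sum came from the keratins KRT8 and KRT18. KRT8 was at 968 and 954 CPM with DMSO and 2595 and 1868 CPM with OTS964, and KRT18 at 683 and 670.5 CPM and 1444 and 1050 CPM. Of 11 basal markers 2 rose and 1 fell, namely the transcription factor FOXC1, from 23.9 and 23.1 CPM to 3.45 and 5.78 CPM. CAV1 and LAMB3 were the basal markers that rose, and neither passed with library totals. Of 10 melanocyte markers tested 0 rose and 1 fell (MITF, which did not pass without OTS964 library 1, adjusted p = 0.15), and of 10 colorectal markers 1 rose (EPHB2) and 1 fell (LGR5, at 1.20 and 0.288 CPM with DMSO and 0 with OTS964), neither of which passed without OTS964 library 1. Of 6 immune markers 2 rose, CD68 and ITGAM (at 1.47 and 1.32 CPM after treatment), and 0 fell. ITGAM did not pass without OTS964 library 1 (adjusted p = 0.071) or with library totals (0.072). CD68, a lysosomal protein, made up most of their sum, at 126 and 133 CPM and 344 and 268 CPM, while the leukocyte gene PTPRC lay between 0 and 0.189 CPM.

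**Figure D3:**
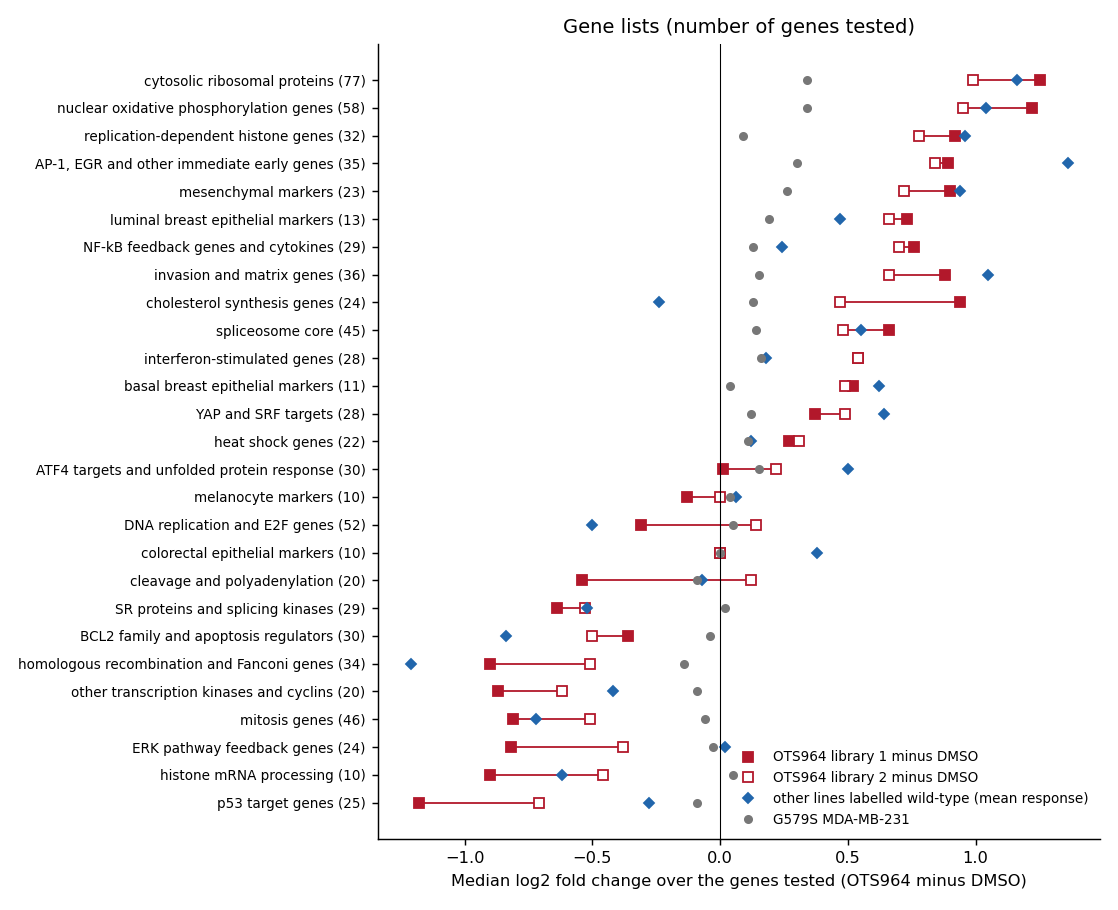
Each row is a gene list with at least 10 genes tested, and the x axis gives the median log2 fold change of OTS964 minus DMSO over its genes: filled and open red squares for OTS964 libraries 1 and 2, blue diamonds for the mean response of the other lines labelled wild-type, grey circles for G579S MDA-MB-231. Ribosomal and oxidative phosphorylation genes lie near 1 in both treated libraries and p53 targets lowest, at -1.18 and -0.71.

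The response varied with the length of the transcript. Among 11369 genes at a mean of at least 1 CPM, ranked by transcript length with quartile limits at 1938, 2975 and 4466 bases, the median log2 change was 0.69 in the shortest quartile, then 0.13, -0.19 and -0.56 in the longest. In the shortest quartile 54.8% of the genes rose and 10.7% fell, and in the longest 11.6% rose and 39.0% fell. The gradient was steeper in OTS964 library 1, from 0.72 to -0.78, than in library 2, from 0.66 to -0.42. It ran from 0.50 to -0.68 in the other lines labelled wild-type and from 0.19 to -0.11 in G579S MDA-MB-231. With library totals it ran from 0.18 to -1.06, so the sign of the second class turned with the scaling and the order of the classes did not. Ribosomal and oxidative phosphorylation genes have short transcripts, and their part in this gradient was not tested.

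**Figure D4:**
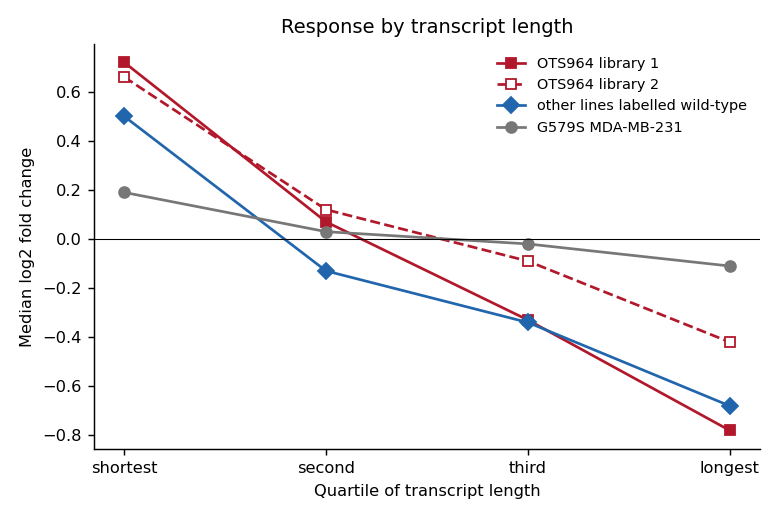
The y axis gives the median log2 fold change of OTS964 minus DMSO and the x axis the quartile of transcript length. Both MDA-MB-231 wild-type OTS964 libraries (red squares) fall from about 0.7 to below 0, library 1 to -0.78 and library 2 to -0.42, while G579S MDA-MB-231 (grey) stays between 0.19 and -0.11.

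By number of exons the medians differed less. Genes with 1 exon had a median log2 change of 0.34, with 38.1% higher, and genes with 20 or more exons a median of -0.07. In the other lines labelled wild-type these medians were 1.12 and -0.40.

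Transcript usage, the share of a gene's reads on each of its transcripts, is the readout of splicing that the files allow. It passed edgeR's test for differential usage in 71 of 7050 genes (1.01%). In ID1, an inhibitor of bHLH transcription factors, the share of the 1-exon transcript NM_181353.2, of 1233 bases, was 4.28% and 3.63% with DMSO and 51.6% and 40.6% with OTS964. Its spliced transcript of 2 exons, NM_002165.3, made up the rest. The total level of ID1 rose as well, from 40.7 and 37.0 CPM to 143 and 109 CPM.

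HMGA2, a chromatin protein of embryonic and tumour cells, held a larger share of its reads on its shorter form with OTS964. Transcript NM_003484.1, of 1529 bases and 4 exons, held 2.61% and 4.2% of the reads with DMSO and 81.8% and 61.8% with OTS964. NM_003483.4, of 4140 bases and 5 exons, held the rest. By transcript, edgeR's usage test passed for this longer form (adjusted p = 7.4e-06) and not for the shorter one (0.37). The longer form went from 2123 and 2324 reads to 86 and 107, and the shorter from 57 and 102 to 386 and 173. The reads of HMGA2 as a whole fell from 109 and 116 CPM to 24.0 and 17.6 CPM. CPM are not corrected for transcript length, and the part of the shorter form in this fall was not tested. In ATF4, the transcription factor of the integrated stress response, NM_001675.3, of 2022 bases, went from 2.46% and 3.00% to 29.0% and 21.0%, beside NM_182810.2, of 1420 bases. In ITPRID2 the shortest transcript, NM_001287505.1, of 2646 bases, went from 2.03% and 2.11% to 47.1% and 53.6%. In all 4 genes both treated libraries lay far above both DMSO libraries.

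The remaining genes among the 8 with the smallest p-values were less clear. In BRD2, a reader of acetylated histones, NM_001199456.1 went from 54.7% and 48.8% to 0 in both treated libraries. In DDR1, a collagen receptor, NM_013993.2 held 57.4% in DMSO library 1 but 0 in DMSO library 2 and in both OTS964 libraries, so 1 library decides this call (adjusted p = 1.00 without it). In ACTG1 and EIF4G2 the transcripts that changed held at most 0.136% and 2.27% of the reads. The count of genes was 31 without OTS964 library 1, 163 without OTS964 library 2 and 28 without either DMSO library. HMGA2 (adjusted p = 0.092) and BRD2 (0.076) did not pass without OTS964 library 1, nor ATF4 (0.091) without DMSO library 1.

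**Figure D5:**
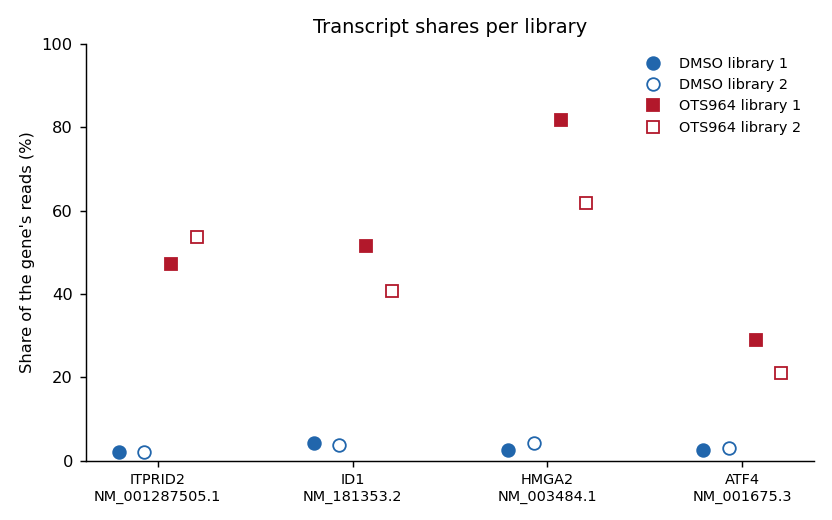
Each symbol is 1 library, with the share (in %) of the gene's reads assigned to the transcript named below it. Circles are DMSO and squares OTS964; for all 4 transcripts the DMSO libraries lie at 4.28% or less and the OTS964 libraries at 21.0% or more.

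The response of MDA-MB-231 differed from the mean response of the other 3 lines labelled wild-type in 3498 of 14318 genes (24.4%), being more positive in 2310 (16.1%) and more negative in 1188 (8.30%). The median of all these differences was 0.17 on the log2 scale. With relative log expression size factors it was 0.04, and 1774 of 3370 differences were positive. Of the 3448 genes higher in MDA-MB-231, 1943 were higher in each of the other 3 lines and 46 lower in each. Of the 3207 lower genes, 1900 were lower in each and 82 higher in each. The other lines alone had 2981 (A375), 3573 (Cal51) and 3184 (labelled DLD1) genes higher, and 3583, 3982 and 3971 lower. The share of all genes called alike in all 3 was not counted, so these overlaps are a description. The libraries labelled DLD1 carried melanocyte markers like A375, so the 3 labels may not be 3 distinct lines. Leaving out the 4 libraries labelled DLD1 wild-type gave 3596 genes.

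Several genes with large negative changes in the other lines changed less in MDA-MB-231. SYVN1, a ubiquitin ligase of the endoplasmic reticulum, stood at 78.8 and 84.0 CPM with DMSO and 70.0 and 56.9 CPM with OTS964, and its change of -0.36 was set against -2.17 in A375, -2.80 in Cal51 and -2.93 in the libraries labelled DLD1 (difference 2.27, SE 0.12; edgeR adjusted p = 1.1e-09). ORAI1, a calcium channel, stood at 63.0 and 58.0 CPM and 85.3 and 67.4 CPM, with a change of 0.34 against -2.67 in the other lines. MED29, a Mediator subunit, stood at 71.0 and 71.7 CPM and 78.2 and 61.5 CPM, and its change of -0.03 was set against -2.09. DUSP3 and UBE2Z changed by -0.02 and 0.12, neither passing, against -1.64 and -0.97. CHAF1A, a histone chaperone of replication, fell by 1.18 against a change of -3.18 in the other lines.

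Other genes had a positive change in the other lines and a negative or smaller one in MDA-MB-231. KANSL2, a subunit of a histone acetyltransferase complex, fell from 27.6 and 23.8 CPM to 16.4 and 16.1 CPM, a change of -0.66 against 1.84 (difference -2.51, SE 0.13; edgeR adjusted p = 6.3e-10). CCN2, the close relative of CCN1, rose from 264 and 257 CPM to 509.5 and 453 CPM, a change of 0.89 against 2.98. SIAH2, a ubiquitin ligase, fell from 21.3 and 19.7 CPM to 7.32 and 6.91 CPM, and changed by 0.62 elsewhere. RNF139 and RPP38 changed by -0.80 and -0.68 against 1.07 and 1.88. DHX35, at 0 in both OTS964 libraries here, changed by -2.43 in the other lines, and the test of the difference had an adjusted p of 2.6e-09 in edgeR.

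By list, 14 of 35 immediate early genes had a more negative response in MDA-MB-231 than in the other lines and 3 a more positive one. Of 29 NF-kB genes 12 were more positive and 2 more negative, of 24 cholesterol synthesis genes 12 and 1, and of 52 genes of DNA replication 19 and 1. Beside these counts, 16.1% of all genes tested were more positive and 8.3% more negative. The cholesterol list had a median of 0.73 here and -0.24 in the other lines. With relative log expression size factors the counts were 10 positive for NF-kB, 6 for cholesterol synthesis and 15 for DNA replication, and 14 negative for immediate early genes. Without the 4 libraries labelled DLD1 wild-type, 9 immediate early genes were more positive and 14 more negative, and 10 NF-kB, 11 cholesterol synthesis and 25 DNA replication genes were more positive. Among the CDK11 complex, CCNL1 and CCNL2 had a more negative response (differences -2.89 and -1.36; edgeR adjusted p = 4.9e-05 and 0.0024).

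G579S MDA-MB-231 cells showed little change with OTS964. In them 44 of 14318 genes (0.307%) passed, 32 higher and 12 lower, and the responses of wild-type and G579S cells differed in 3795 genes (26.5%), 1903 more positive in wild-type and 1892 more negative. The genotypes also differed in the level of CDK11B, which stood at 605 and 672 CPM with DMSO and 849.9 and 879.8 CPM with OTS964 in G579S MDA-MB-231, against 56.4 to 71.3 CPM in the wild-type libraries and 25.5 to 57.3 CPM in the G579S libraries of the other lines. The part of this level in the contrast was not tested. With library totals the difference passed in 374 and 2721 genes. The 6 genes with the smallest adjusted p of this difference fell in wild-type cells. AKIRIN1, a nuclear cofactor of transcription, fell from 118 and 116 CPM to 21.7 and 22.8 CPM in wild-type cells, and its change was -0.20 in G579S cells (difference -2.19, SE 0.13; edgeR adjusted p = 2.4e-09). TOB2, an antiproliferative factor that acts in mRNA deadenylation, fell from 55.7 and 61.6 CPM to 2.34 and 3.33 CPM and GGNBP2 from 87.2 and 80.8 CPM to 9.55 and 11.9 CPM, against changes of -0.40 and -0.15 in G579S cells. DHX35, CNEP1R1 and ZSCAN29, at 0 in the treated wild-type libraries, changed by 0.24, -0.18 and -0.53 in G579S cells. Ribosomal genes differed in the positive direction in 70 of 77, against 13.3% of all genes tested. Mitosis genes differed in the negative direction in 17 of 46, against 13.2% of all genes tested.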

How the data were processed

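RNA was sequenced from wild-type MDA-MB-231 cells given DMSO (2 libraries) or OTS964 at 100 nM (2 libraries) for 6 h. Groups were taken from the titles. The labels' protocols name DMEM with serum as the medium, a column kit for the RNA and a SMARTer mRNA kit for the libraries. The authors deposited, per the file headers, estimated counts per transcript, which are not normalized. The deposited TPM values, per the file headers, are normalized for transcript length and library total, and were used only in 1 alternative. The sources used here do not give the quantification tool. Mouse builds (GRCm38, mm10) are the builds named in the submitters' processing notes, although the identifiers are human RefSeq ones, so no coordinates are given other than those of the promoters, which come from the RefSeq table of build GRCh38.p14.

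Of 87398 identifiers 42543 matched a gene (48.68%), among them 36228 of 36585 curated ones, with a mean of 87.56% of the reads. Reads on unmatched identifiers entered neither library sizes nor tests. Sums of estimated counts over 18858 genes were rounded to whole numbers. The test was edgeR 4.0.16 in R 4.3.3 (quasi-likelihood F test, robust, with TMM factors and a filter on low counts by group). A single fit of the 16 groups used all 32 libraries and left 16 residual degrees of freedom. Adjustment was that of Benjamini and Hochberg over 14318 genes, with a threshold of 0.05. Responses were compared between lines and genotypes as contrasts of that fit. Transcript usage was tested with diffSpliceDGE and the Simes method. Fold changes against a group at 0 use a floor of 3 counts per library and reflect counting error alone, because no molecular identifiers mark independent molecules. The total per library ranged from 16091376 to 29742687 estimated reads over the series. The test was checked on simulated data before use. All simulated libraries had the same spread, so that check does not cover the wider gap between the OTS964 libraries.

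The members and gene lists were chosen with earlier results of these data known. Named genes followed a rule: the CDK11 complex, the 12 highest and 12 lowest changes among called genes at 10 CPM or more in the higher group with no overlap between groups, up to 4 members with the smallest adjusted p of each list, the 10 genes with the largest gap between the OTS964 libraries and the 5 with the largest gap the other way, the 6 with the smallest adjusted p in each direction for the difference from other lines (at least 1 on the log2 scale) and the 6 in all for that from G579S, and the 8 with the smallest adjusted p for transcript usage. Alternatives were other scalings, DESeq2 1.42.0, other filters, curated transcripts, counts from TPM, a replicate block, fewer libraries in the fit and each library left out in turn. Motifs and overlaps of genes were read from RefSeq tables.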

Additional observations from a re-analysis of the deposited data

Results flagged for a closer look

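The response to OTS964 differed between wild-type MDA-MB-231 and the mean of the other lines labelled wild-type in 3498 genes, and between wild-type and G579S MDA-MB-231 in 3795 genes, each by the test of the difference in edgeR. The genes below had the smallest adjusted p of such a test, and all values are differences of log2 changes.

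Above the other lines stood SYVN1 (2.27), MED29 (2.06), ORAI1 (3.01), UBE2Z (1.08), DUSP3 (1.62) and CHAF1A (2.00). Below them stood KANSL2 (-2.51), CCN2 (-2.09), SIAH2 (-2.15), RNF139 (-1.87), RPP38 (-2.56) and DHX35 (-9.37). Wild-type minus G579S, the differences were -2.82 for GGNBP2, -2.19 for AKIRIN1, -3.98 for TOB2, -12.04 for DHX35, -10.55 for CNEP1R1 and -10.91 for ZSCAN29. DHX35, CNEP1R1 and ZSCAN29 were at 0 in both OTS964 libraries of wild-type MDA-MB-231, so the sizes fitted for them depend on the prior count and are not bounds.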

How the results depend on the processing

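The count of 6655 genes called in wild-type MDA-MB-231 was 4007 (1750 higher and 2257 lower) with only its 4 libraries in the fit. There fewer samples estimate the spread, and the wide gap of the OTS964 pair is not pooled with other groups. The part of each in the lower count was not tested. The count was 7356 with DESeq2 on all libraries. The counts of genes whose response differed from the other lines (3498) and from G579S (3795) stayed within 1.5 times the main value under every alternative run. The 71 genes with changed transcript usage became 21 with the replicate block and lay between 28 and 163 with 1 library left out, and the cause was not tested. Library numbers were not taken as pairing the samples: deviations of same-numbered libraries correlated at 0.007 in wild-type MDA-MB-231, and the replicate block gave 6346 genes over all libraries and 4799 within the 4 libraries. Signs turned for CCNL1 (-0.263 with library totals, and between -0.036, without OTS964 library 1, and 0.541 with 1 library left out) and CDK11B (-0.351 with library totals), and for CCNL2 in wild-type minus G579S (0.154 with counts from TPM scaled by gene length), none of which passed. Among named genes in the wild-type response 1820 combinations of gene and alternative kept direction and side of the threshold, 62 lost the call, 1 gained it and 3 changed sign. Depth limits genes at 0: 3 counts correspond to 0.189 CPM over the OTS964 libraries.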
